A study of Caenorhabditis elegans with 4 samples.

Results

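The nematode-specific peptide genes of groups A to E, nspa to nspe, were followed in the 4 RNA samples of wild-type early embryos. Members were all measured genes whose symbol carries one of these 5 family names, whatever their values, and 57 of the 20040 genes on the array met this rule: 10 of nspa, 12 of nspb, 18 of nspc, 10 of nspd and 7 of nspe. The RefSeq annotation lists 64 genes under these names, and the 7 that were not measured are 6 pseudogenes (nspa-11, nspa-12, nspc-8, nspc-11, nspd-11 and nspd-12) and nspe-8.

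All 4 samples were embryos of the C. elegans strain N2, the standard wild type, with no treatment and no mutation, so the series holds 1 group and no comparison of conditions. Each sample was total RNA from a separate embryo preparation, released by bleaching gravid adults from liquid culture, and each preparation was a mixture of early stages. RNA was labelled with Cy3 and hybridised to single-colour NimbleGen arrays with 3 probes of 60 bases for most transcripts, and all 57 members were measured by 1 transcript with 3 probes. The samples are called replicates 1 to 4, and replicate 4 was set against replicates 1, 2 and 3.

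Nematode-specific peptide families were named for having relatives among nematodes and no clear counterpart elsewhere. Their products are small, their genes often lie in tandem runs of near-identical copies, and for most of them no biochemical role is known. Genes of groups D and F have been described as expressed in the male germ line of Caenorhabditis. Early embryos begin with RNA laid down by the mother in the oocyte, and their own transcription starts gradually, so RNA in such a preparation can be maternal or embryonic.

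The peptide families were selected on their log2 values in replicate 4, which were already known to stand apart from those in the other samples, although within the families no gene was kept or dropped for its value. Differences between replicate 4 and the rest are therefore given as a description, with the SD over replicates 1 to 3 and the share of all genes beside them, and no test was made. Values are log2 intensities, and a difference is the log2 value in replicate 4 minus the mean of replicates 1 to 3. Levels of different genes come from different probes and include how well each probe binds, so they are compared between samples and not between genes. Copies of a family may also share probes or bind each other's RNA, which could not be examined without the probe sequences.

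Replicate 4 stood somewhat apart over the whole array. Its log2 values correlated with those of the other samples at a Pearson's r of 0.968 to 0.973 across 20040 genes, against 0.985 to 0.992 among replicates 1 to 3, where genes are not independent replicates and all arrays shared 1 normalization. The file headers give each sample its own array image, so array and sample cannot be told apart. The labels describe a DNase treatment for all 4 samples and the study's methods for only some of them, without saying which, so its part was not tested. The median difference over all genes was -0.03, but it varied with level, at 0.49 among the 2004 genes with the lowest values in replicates 1 to 3 and -0.40 among 2004 genes of middling level. The 12 oocyte and eggshell genes, whose RNA early embryos inherit, had median log2 values of 14.30 in replicate 4 and of 14.53, 14.60 and 14.52 in replicates 1, 2 and 3, and all 12 exceeded the serpentine receptor level in every sample. That level, used because the files carry no detection call, is the level that 2.5% of 1343 serpentine receptor genes exceeded in each sample, at log2 8.70 in replicate 4 and 8.47, 8.59 and 8.70 in replicates 1, 2 and 3.

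Replicate 4 held the highest value of 43 of the 57 members, and 36 were at least 2-fold higher there than the mean of replicates 1 to 3. Over all 20040 genes, replicate 4 was highest for 28.5% and at least 2-fold higher for 9.43%. None of the members was at least 2-fold lower in replicate 4, against 5.93% of all genes, and replicate 4 was the lowest sample for 2 members, against 31.6%. Replicate 3 was the highest sample for the other 14 members, against 33.6% of all genes, and neither replicate 1 nor replicate 2 was highest for any, against 19.1% and 18.8%. Replicate 4 lay within the range of replicates 1 to 3 for 12 members, against 39.8% of all genes, and was at least 4-fold higher for 16 members, against 2.49%. The median difference over members was 1.72, a 3.28-fold difference, and it ranged from -0.47 to 4.47.

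The families divided into nspc, with the largest differences, nspa and nspb, with moderate ones, and nspd and nspe, in which replicate 4 mostly lay inside the range of the other samples. The median difference was 3.79 for nspc, 1.77 for nspa, 1.75 for nspb, 0.28 for nspd and -0.05 for nspe. After centring on the 100 genes next below and the 100 next above in level these medians were 3.58, 2.00, 1.30, 0.68 and 0.41, so that of nspe changed sign.

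**Figure D1:**
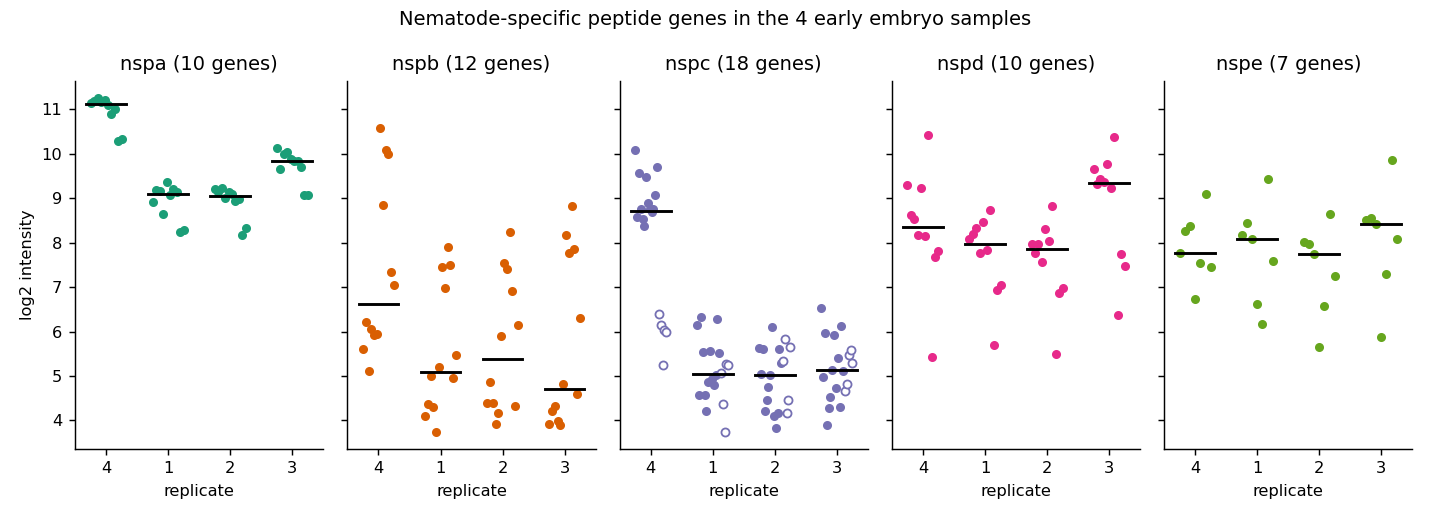
Log2 intensity of each measured member (1 point per gene) in replicate 4 and in replicates 1, 2 and 3, with 1 panel per family, black bars at the median and open circles for nspc-16 to nspc-20. The nspc genes had a median of 8.72 in replicate 4, against 5.04, 5.03 and 5.12 in replicates 1, 2 and 3, while the nspe medians of all 4 samples lay between 7.75 and 8.43.

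**Figure D2:**
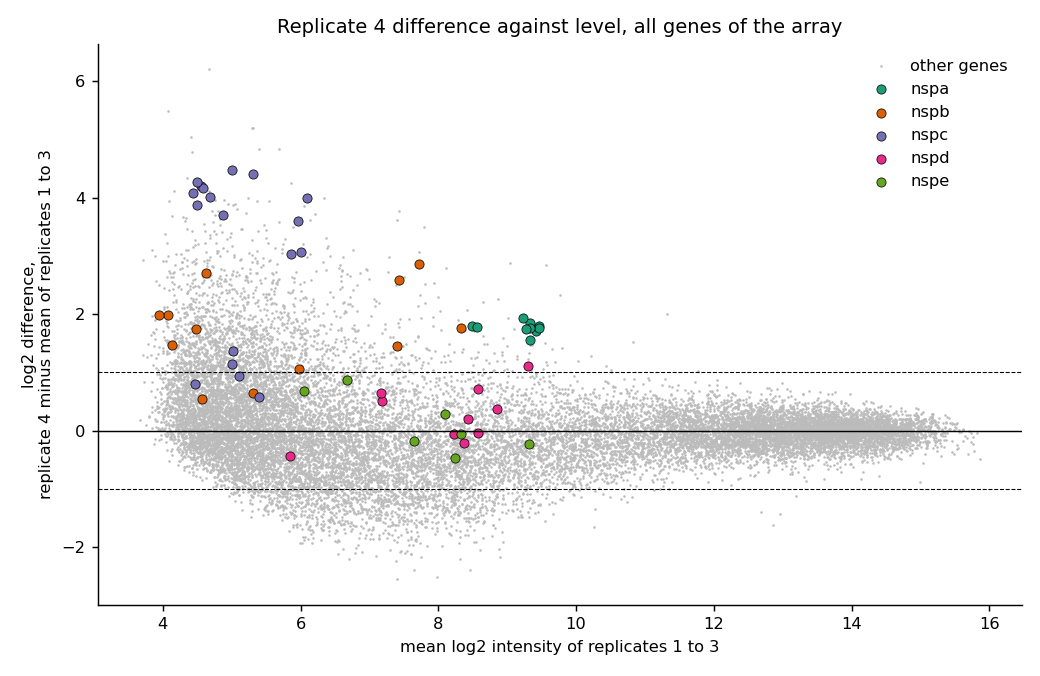
Difference between replicate 4 and the mean of replicates 1 to 3 (log2) against that mean (log2) for each gene, with members coloured by family and all other genes in grey. The differences of 13 nspc genes lay between 3.03 and 4.47, and those of the nspa genes between 1.56 and 1.94.

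The 18 measured nspc genes all lie on chromosome X, in 3 runs of successive copies: nspc-1 to nspc-7, nspc-8 to nspc-15, of which 6 were measured, and nspc-16 to nspc-20. The 13 measured genes of the first and second runs were all at least 8-fold higher in replicate 4, against 0.554% of all genes and 1.39% of the 5702 genes whose mean in replicates 1 to 3 lay in the range of nspc. Of all 18, 15 were at least 2-fold higher and 17 highest in replicate 4, against 21.2% and 42.4% of those 5702 genes. In order of difference over the whole array the 13 held ranks 9 to 107, with 11 among the 50 largest differences.

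In the first run, nspc-7 (C03G5.2) had the largest difference of any member. It had a log2 value of 9.48 in replicate 4, against 4.87, 5.01 and 5.14 in replicates 1, 2 and 3, a difference of 4.47 (22.2-fold) against an SD of 0.14 over replicates 1 to 3. On the linear scale this was an intensity of 712 in replicate 4 and of 29.2, 32.3 and 35.2 in replicates 1, 2 and 3. Replicate 4 thus stood alone, with the other samples close together. At the start of the run, nspc-1 had 10.09 in replicate 4 and 6.14, 5.62 and 6.53 in the others, a difference of 3.99 with an SD of 0.46. nspc-4 had 8.76 in replicate 4 and 5.55, 4.22 and 3.89 in the others, a difference of 4.20 with an SD of 0.88. The SD of nspc-4 was the widest in the run, and its replicate 4 was still 3.21 above the next highest sample. The smallest difference of the run was that of nspc-3, which had 9.57 in replicate 4 and 6.33, 5.62 and 5.96 in the others, or 3.60 with an SD of 0.36. The median difference over the 7 genes was 3.99 (15.9-fold).

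The second run gave the same picture. nspc-15 had 9.71 in replicate 4 and 5.52, 5.29 and 5.11 in replicates 1, 2 and 3, a difference of 4.40 (21.2-fold) with an SD of 0.21. nspc-13 had 8.77 in replicate 4 and 5.03, 4.17 and 4.31 in the others, a difference of 4.27 with an SD of 0.46. nspc-10 had 8.75 in replicate 4 and 4.94, 4.10 and 4.73 in the others, a difference of 4.16 with an SD of 0.43. In each of these genes replicate 4 was at least 3.74 above the next highest sample. Differences were smaller for nspc-9, at 3.03 (8.15-fold), and nspc-14, at 3.06 (8.36-fold). nspc-14 had 9.07 in replicate 4 and 6.27, 5.60 and 6.13 in the others. The median difference over the 6 genes was 4.08.

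The third run differed from the first and second. The 5 genes nspc-16 to nspc-20 had differences of 0.58 to 1.37, with a median of 0.93, none of which reached the smallest difference of the other nspc genes, 3.03. nspc-16 had 6.39 in replicate 4 and 5.06, 5.34 and 4.66 in replicates 1, 2 and 3, a difference of 1.37 (2.58-fold) with an SD of 0.34. nspc-18 had 5.26 in replicate 4 and 3.74, 4.16 and 5.48 in the others, so that replicate 3 was the highest sample. nspc-20 had 5.98 in replicate 4 and 5.25, 5.66 and 5.28 in the others, a difference of 0.58 with an SD of 0.23. In this run 2 of the 5 genes, nspc-16 and nspc-17, were at least 2-fold higher in replicate 4, and replicate 4 was the highest sample for 4 of the 5. Of the 5702 genes in the level range of nspc, 21.2% were at least 2-fold higher and 42.4% highest in replicate 4. The run had a median of 6.03 in replicate 4, against 5.06, 5.34 and 5.29 in replicates 1, 2 and 3, and the other 13 nspc genes had a median of 8.77 in replicate 4, against 5.03, 5.01 and 5.11.

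**Figure D3:**
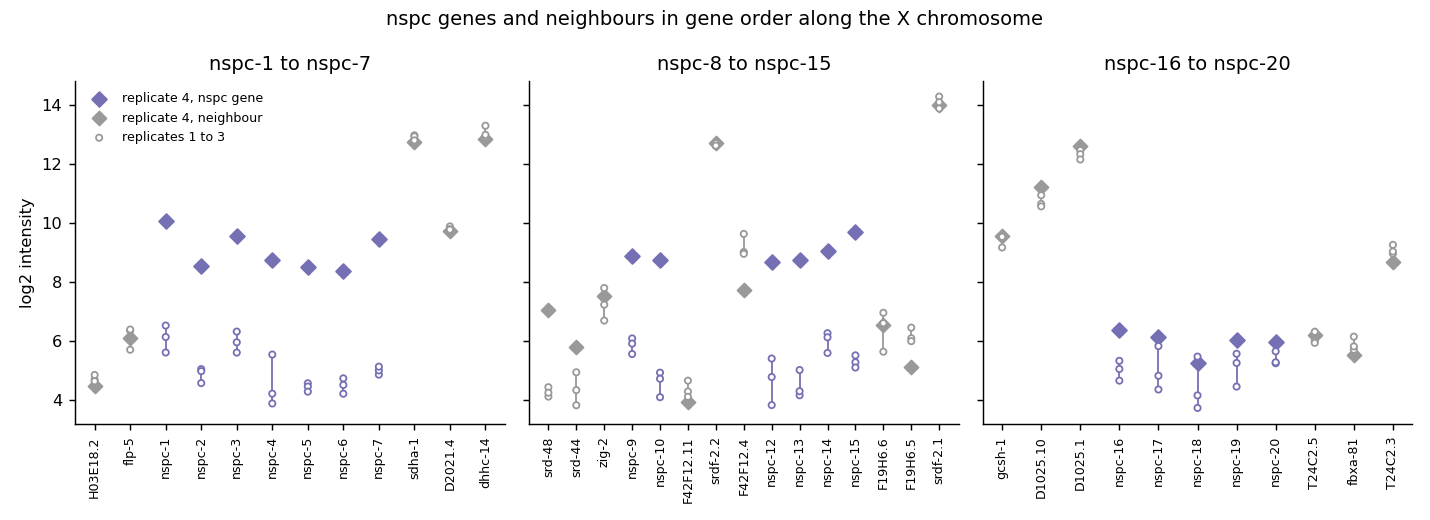
Log2 intensity of the nspc genes (blue) and their measured neighbours (grey) in gene order along chromosome X, spaced evenly and not to distance, with diamonds for replicate 4 and open circles for replicates 1, 2 and 3. Replicate 4 was above the other samples by 3.03 or more on average along the first and second runs, and by 0.58 to 1.37 along nspc-16 to nspc-20.

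Genes next to the nspc runs mostly did not share the difference. Of the 5 measured neighbours of nspc-1 to nspc-7, which include the neuropeptide gene flp-5 and sdha-1, for a subunit of succinate dehydrogenase, differences lay between -0.24 and -0.05. Of these, sdha-1, D2021.4 and dhhc-14 had far higher levels than the nspc genes in replicates 1 to 3. At such levels few genes differed: 0.55% at means of 9.58 to 11.57 and 0% at 12.83 to 13.79 were at least 2-fold higher in replicate 4. In the level range of nspc the share was 21.2%. flp-5, next to nspc-1, had 6.11 in replicate 4 and 5.71, 6.36 and 6.40 in replicates 1, 2 and 3, so that replicate 4 lay within the range of the others. The 6 neighbours of nspc-16 to nspc-20 had differences of -0.39 to 0.52. Around and within nspc-8 to nspc-15, 9 measured neighbours had a median difference of 0.06, and 3 of them lie between members of the run. Of these 9, F42F12.4, between nspc-10 and nspc-12, had 7.73 in replicate 4 and 9.03, 8.97 and 9.64 in the others, a difference of -1.48 with replicate 4 lowest. srd-48, a serpentine receptor gene and the third annotated gene outside the run, had 7.07 in replicate 4 and 4.12, 4.44 and 4.25 in the others, a difference of 2.80. The neighbouring receptor gene srd-44 had a difference of 1.42. Of all 1343 serpentine receptor genes, 373 (27.8%) were at least 2-fold higher in replicate 4.

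**Figure D4:**
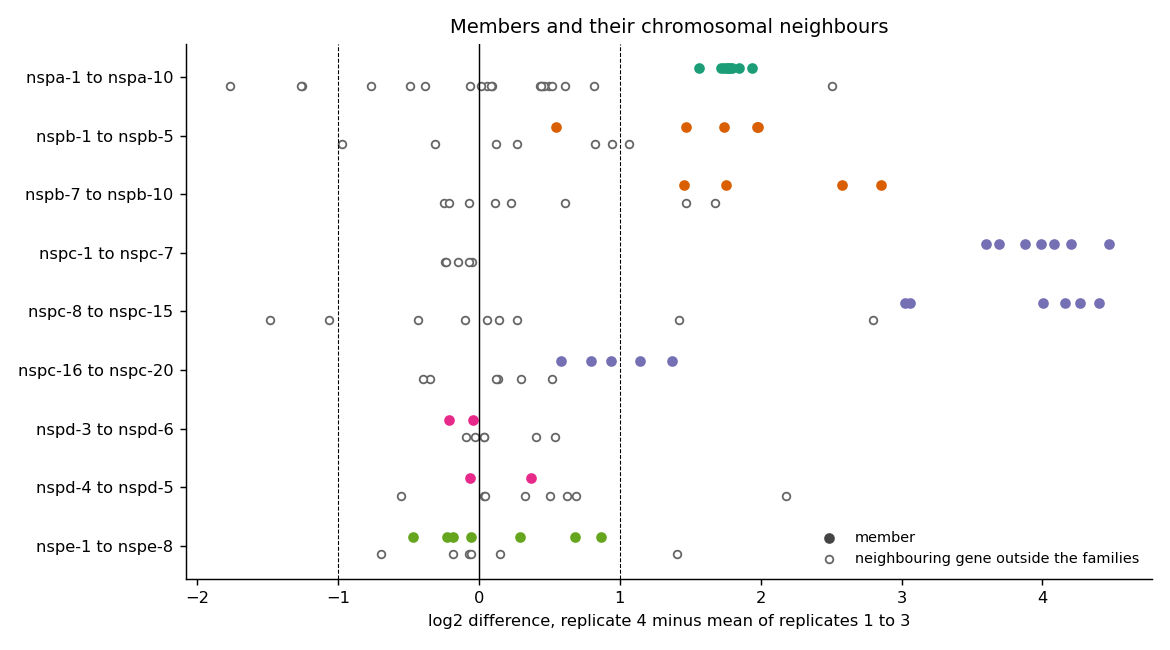
Difference between replicate 4 and the mean of replicates 1 to 3 (log2) for the members of each run (filled) and for the measured genes between them or up to 3 annotated genes on either side (open), with dashed lines at a 2-fold difference. The members of nspc-1 to nspc-7 lay between 3.60 and 4.47 and their 5 neighbours between -0.24 and -0.05. Some of these neighbours had far higher levels than the members in replicates 1 to 3, where few genes differed.

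The 12 nspb genes were highest in replicate 4 without exception, and 10 were at least 2-fold higher, against 36.2% and 17% of the 10554 genes in the same range of level. They lie in a run on chromosome II (nspb-7 to nspb-10), a run on chromosome IV (nspb-1 to nspb-5) and 3 separate places. In the chromosome II run, all 4 genes exceeded the serpentine receptor level in replicate 4, against 44.2% of all genes. nspb-7 had 10.58 in replicate 4 and 7.45, 7.55 and 8.17 in replicates 1, 2 and 3, a difference of 2.86 (7.25-fold) with an SD of 0.39. nspb-10 had a linear intensity of 1027 in replicate 4 and of 181, 121 and 233 in the others, a log2 difference of 2.58 with an SD of 0.48. nspb-8 had the smallest difference of this run, 1.45, with 8.85 in replicate 4 and 6.99, 7.41 and 7.78 in the others. For all 4 genes replicate 3 was the next highest sample.

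In the chromosome IV run every value was under the serpentine receptor level. nspb-5 had 5.92 in replicate 4 and 3.75, 4.18 and 3.89 in replicates 1, 2 and 3, a difference of 1.98 (3.95-fold) with an SD of 0.22. nspb-3 had 5.11 in replicate 4 and 4.99, 4.38 and 4.33 in the others, a difference of 0.54, so that replicate 4 exceeded replicate 1 by only 0.12. At low values the background is higher, since 28.7% of the 2004 genes of lowest level were at least 2-fold higher in replicate 4. Of the genes outside the runs, nspb-11 on chromosome II had 7.33 in replicate 4 and 4.96, 4.33 and 4.60 in the others, a difference of 2.70 with an SD of 0.32. nspb-12 on chromosome III differed by 1.06, and nspb-6 on chromosome IV by 0.64 with replicate 4 only 0.04 above replicate 2.

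Of the 8 measured neighbours of the chromosome II run, 2 were at least 2-fold higher in replicate 4, against 9.43% of all genes. C01G12.13, next to nspb-7, had 8.86 in replicate 4 and 6.96, 6.51 and 8.09 in replicates 1, 2 and 3, a difference of 1.68. cror-1, between nspb-9 and nspb-10, differed by 1.47. The other 6 lay between -0.25 and 0.61, among them madf-5 and tps-2, for a trehalose phosphate synthase. Of the 7 neighbours of the chromosome IV run, lec-11, a galectin gene, differed by 1.06 and the rest by -0.97 to 0.94.

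The 10 nspa genes shared nearly 1 pattern. Each was highest in replicate 4 and each was at least 2-fold higher there, against 16.5% and 4.44% of the 1080 genes in the same range of level. Their differences spanned only 1.56 to 1.94. The medians were 11.12 in replicate 4 and 9.10, 9.05 and 9.84 in replicates 1, 2 and 3, so replicate 3 also stood above replicates 1 and 2, by a median of 0.77. nspa-4 (H12D21.13) had the largest difference, with a linear intensity of 2291 in replicate 4 and of 398, 513 and 1045 in the others, or a log2 difference of 1.94 (3.83-fold) with an SD of 0.72. nspa-2 had 11.18 in replicate 4 and 9.19, 9.15 and 9.66 in the others, a difference of 1.85 with an SD of 0.28. nspa-7 had the smallest, with 10.89 in replicate 4 and 9.20, 8.93 and 9.85 in the others, or 1.56 with an SD of 0.47. In none of the 10 did replicate 4 overlap the other samples, and it exceeded the next highest by 1.00 to 1.52.

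The differences of the nspa genes were alike on both chromosomes that hold them. Of the 10, 9 lie on chromosome V, spread among other genes, and nspa-9 lies alone on chromosome X. nspa-9 had 10.29 in replicate 4 and 8.23, 8.17 and 9.08 in replicates 1, 2 and 3, a difference of 1.80 with an SD of 0.51. nspa-10, at the end of the chromosome V run, had 10.34 in replicate 4 and 8.29, 8.32 and 9.07 in the others, a difference of 1.78 with an SD of 0.44. The 20 measured neighbours on chromosome V had a median difference of 0.09. Of these, 1 was at least 2-fold higher and 3 at least 2-fold lower, against 9.43% and 5.93% of all genes. The 1 that was higher, gcy-14, for a receptor guanylyl cyclase, had 6.87 in replicate 4 and 4.61, 4.45 and 4.01 in the others, a difference of 2.51. At its level, among the 2004 genes with the lowest values, 28.7% were at least 2-fold higher. The 3 that were lower, scrm-7, W06A7.4 and Y50E8A.12, lie between nspa-10 and nspa-8 and had differences of -1.77, -1.27 and -1.26. Of genes with means of 5.84 to 6.68 in replicates 1 to 3, as for scrm-7 and W06A7.4, 14.5% were at least 2-fold lower. At means of 6.68 to 7.90, as for Y50E8A.12, the share was 21.2%. Of the 20 neighbours, 17 lie between members. Toward the other end of the run, ZC412.8, ZC412.9, H12D21.3 and H12D21.2 had differences of 0.61, 0.52, 0.45 and 0.09. ZC412.8 had 9.76 in replicate 4 and 8.77, 8.93 and 9.73 in the others, so that replicates 3 and 4 were both high.

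The nspd genes differed mainly in replicate 3. Replicate 3 was the highest sample for 8 of the 10, against 34.3% of the 5695 genes in the same range of level, and it exceeded the mean of replicates 1 and 2 by 0.47 to 1.69, with a median of 1.31. The medians were 8.35 in replicate 4 and 7.97, 7.86 and 9.35 in replicates 1, 2 and 3. Replicate 4 was highest for nspd-7 and nspd-10, against 20.7% of the genes in that range. nspd-7 had 10.41 in replicate 4 and 8.74, 8.82 and 10.37 in the others, a difference of 1.11 with an SD of 0.92, and replicates 3 and 4 were nearly equal. It was the only nspd gene at least 2-fold higher in replicate 4, against 7.9% of the genes in the same range. nspd-1 had 9.29 in replicate 4 and 8.09, 7.97 and 9.65 in the others, a difference of 0.72 that is less than the SD of 0.94. nspd-4 had 8.17 in replicate 4 and 7.77, 7.57 and 9.36 in the others, a difference of -0.06 with an SD of 0.98. For nspd-1 and nspd-4, replicate 4 lay between replicates 1 and 2 below and replicate 3 above. nspd-8 was the only 1 of the 10 lowest in replicate 4, with 5.42 there and 5.69, 5.50 and 6.37 in the others. The genes are scattered over chromosomes I, II, III and IV, with no more than 2 in a run.

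The 7 nspe genes, all in 1 run on chromosome II, showed no common shift in replicate 4. Differences lay between -0.47 and 0.87, with none at least 2-fold in either direction, against 7.11% of the 5159 genes in the same range of level at least 2-fold higher. Replicate 4 was highest for nspe-4 and nspe-5, against 19.7% of the genes in that range, and replicate 3 was highest for the other 5, against 34.7%. nspe-6 had 9.09 in replicate 4 and 9.43, 8.64 and 9.87 in replicates 1, 2 and 3, a difference of -0.23 with an SD of 0.62. nspe-5 had 7.54 in replicate 4 and 6.18, 6.57 and 7.28 in the others, a difference of 0.87 with an SD of 0.56. nspe-1 had a linear intensity of 217 in replicate 4 and of 290, 260 and 363 in the others, a log2 difference of -0.47 with an SD of 0.24 and with replicate 4 lowest. The run therefore held genes with replicate 4 at either end of the 4 samples.

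Against the serpentine receptor level, 10 of the 57 members were above it in all 4 samples, compared with 42% of all genes: 8 nspa genes, nspd-7 and nspe-6. In replicate 4, 27 members were above it, against 44.2% of all genes, and 12 were above it in replicate 4 alone, against 0.898%. Those 12 were 9 nspc genes and nspb-7, nspb-8 and nspb-10. In replicates 1 to 3 no nspc gene exceeded the level, so their folds in replicate 4 are set against values within the range of the serpentine receptor genes. For 26 of the 57 members no sample was above the level, against 10330 of all 20040 genes. Among the 26 were nspc-16 to nspc-20 and nspb-1 to nspb-6.

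Replicate 4 was also high in the major sperm proteins, the cytoskeletal and signalling proteins of nematode sperm. The 30 major sperm protein genes had medians of 9.66 in replicate 4 and 8.47, 8.60 and 9.11 in replicates 1, 2 and 3. Their median difference was 1.17, with 18 at least 2-fold higher in replicate 4 and 28 highest there, against 9.43% and 28.5% of all genes. The 29 genes of spermatogenesis and sperm function had medians of 7.07 in replicate 4 and 6.74, 6.76 and 7.73 in the others, a median difference of -0.30, with 3 at least 2-fold higher and 3 at least 2-fold lower, shares near the 9.43% and 5.93% of all genes. At the ends of this list, spe-8, for a kinase of sperm activation, had a difference of 1.18, and spe-41, for a calcium channel of sperm, had one of -1.33. The 16 genes of sperm-specific families P and Q had a median difference of -0.70. None was at least 2-fold higher and 4 were at least 2-fold lower, against 9.43% and 5.93% of all genes. Their means in replicates 1 to 3 lay between 4.60 and 8.11. Over such levels the share of all genes at least 2-fold lower rose from 0% at means of 3.67 to 4.71 to 21.2% at 6.68 to 7.90. The 3 genes of nematode-specific peptide group F, a sperm-expressed family outside the 5 families, differed by 0.94 to 1.19. Groups G and H, added to the comparison after their values were seen, had median differences of -0.07 over 14 genes and 0.04 over 7. The part of sperm RNA in the nsp values was not tested.

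Median differences of the other lists were smaller than those of nspa, nspb and nspc. They were 0.03 for 12 muscle genes, 0.18 for 8 gut genes, -0.10 for 10 neuron genes, 0.24 for 10 epidermis and cuticle genes, 0.41 for 6 vitellogenins, -0.30 for the 12 oocyte and eggshell genes and -0.11 for 62 ribosomal protein genes. The 36 fungus-induced peptide genes, another set of small peptides in gene runs, had a median difference of 0.35, with 11 at least 2-fold higher, 7 at least 4-fold higher and 2 at least 8-fold higher, against 9.43%, 2.49% and 0.554% of all genes. Of the 36, 34 were above the serpentine receptor level in no sample, and at low levels the shares are larger. Of the 2004 genes of lowest level 28.7% were at least 2-fold higher. In the level range of nspc 21.2% were at least 2-fold and 1.39% at least 8-fold higher. The largest differences of the fungus-induced peptide genes were those of fipr-7, at 3.30, and fip-2, at 3.29. fipr-7 had 7.98 in replicate 4 and 4.50, 4.83 and 4.72 in replicates 1, 2 and 3, so that replicate 4 stood alone there too. The serpentine receptors had a median difference of 0.44. The muscle medians were 8.47 in replicate 4 and 9.08, 8.77 and 7.49 in replicates 1, 2 and 3. Replicate 3, high for most nspd and nspe genes, was thus low for muscle. Replicate 3 was also highest for 16 of 29 spermatogenesis genes, 13 of 16 P and Q genes and 6 of 7 group H genes. It was highest for 3 of 14 group G genes, 1 of 30 major sperm protein genes and 0 of 3 group F genes. The share over all genes was 33.6%. The neuron medians were 7.31 in replicate 4 and 8.18, 8.33 and 8.29 in the others, although the median difference per gene was -0.10. Of the 10 neuron genes, 2 were at least 2-fold lower and 1 at least 2-fold higher in replicate 4, against 5.93% and 9.43% of all genes. Replicate 4 was the lowest sample for 4 of them, against 31.6%. Whether stage or tissue makeup of the preparations has a part in these values was not tested.

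**Figure D5:**
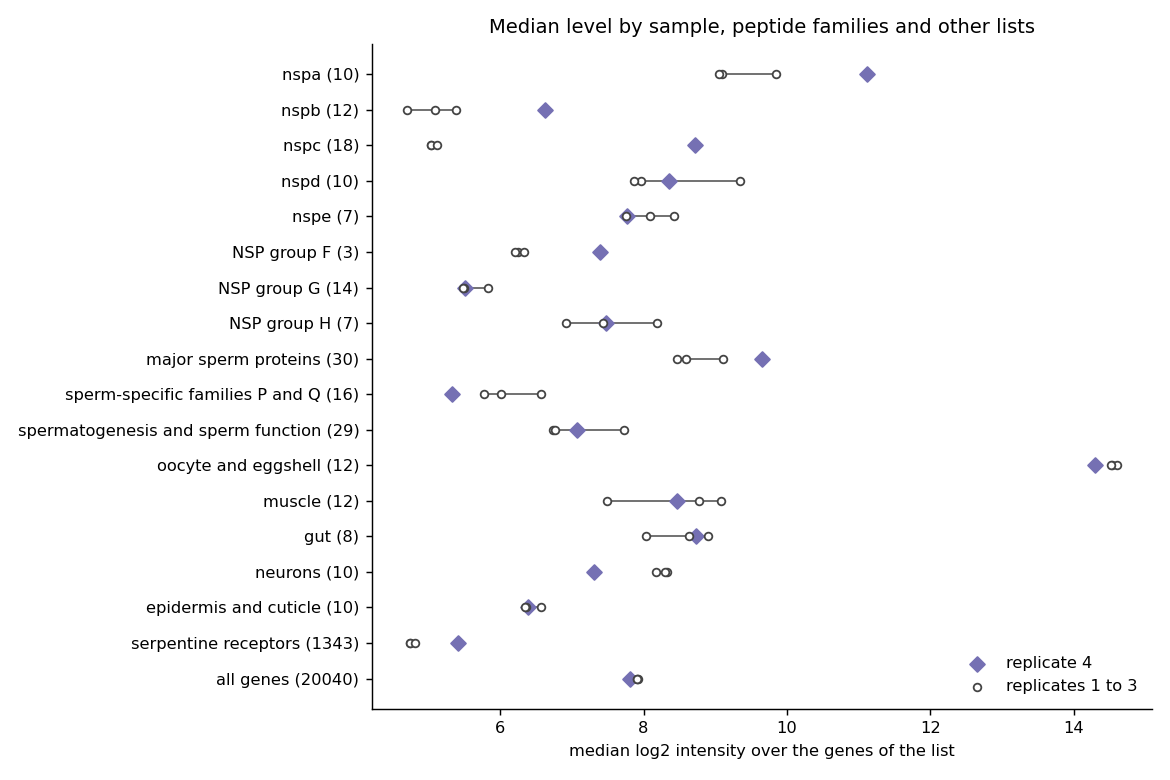
Median log2 intensity over the genes of each peptide family and each comparison list (number of genes in parentheses), with a diamond for replicate 4 and open circles for replicates 1, 2 and 3. The medians of nspa, nspb, nspc, group F, the major sperm proteins and the serpentine receptors were highest in replicate 4. Those of nspd, nspe, group H, sperm-specific families P and Q and the spermatogenesis genes were highest in replicate 3.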

How the data were processed

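RNA of 4 samples of N2 early embryos was measured on single-colour NimbleGen expression arrays. The authors quantile normalized the arrays, summarised the probes of each transcript by RMA and deposited intensities on a linear scale. Which annotation and build the array was designed on is not given in the sources used here. A deposited series-wide table repeated these intensities (0 of 92720 values differed), and a deposited column of standard errors was not used.

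Intensities were taken to log2 without a pseudocount or a filter, and transcripts of a gene were averaged, which reduced 23180 transcripts to 20040 genes. Of these, 19383 were named through a RefSeq table of assembly WBcel235, which also gave chromosomes and gene order. Its coordinates were not used. A run is a set of successive members with at most 12 genes between them. Intensities carry no count of reads, and the precision is limited by the number of arrays, 4. All samples form 1 group, and replicate 4 is 1 sample, so differences have no test and no p-value. The serpentine receptor level stands in for a detection call.

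The members, the comparison lists and the comparison of replicate 4 were chosen with earlier results of these data known. By rule, the genes to name were, in each family, the 3 members highest and the 3 lowest in mean level and the 3 with the most positive and the 3 with the most negative difference, 44 of 57 in all, and in each other list at most the 2 most positive and the 2 most negative. nspb-8, nspc-2, nspc-4, nspc-5, nspc-6, nspc-9, nspc-10 and nspc-16 and the neighbouring genes fell outside it and were named after their values were seen. Not all of the 44 are described singly: nspa-3, nspb-4 and nspe-7 are among those left out, and no rule was set for leaving them out. Alternatives were other centrings, pseudocounts of 32 and 100, other thresholds, a filter on low values, the median of replicates 1 to 3 and leaving out each of them. The scripts were tested on simulated data. Scripts ran under Python 3.11.15 with matplotlib 3.10.9, numpy 2.4.6 and pandas 2.3.3.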

Additional observations from a re-analysis of the deposited data

Results flagged for a closer look

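Of the 57 members, 6, all nspc genes, had replicate 4 apart at the high end of the 4 samples by Dixon's ratio, the gap to the nearest sample divided by the whole range (above its 95% critical value for 4 samples). The ratio was 0.9413 for nspc-7, 0.9328 for nspc-5, 0.9102 for nspc-15, 0.8810 for nspc-2, 0.8742 for nspc-6 and 0.8408 for nspc-9. The median of all nspc genes had a ratio of 0.9755, that of nspc-1 to nspc-7 of 0.9632 and that of nspc-8 to nspc-15 of 0.8669. Chance flags about 1 in 20 groups of samples, and over all 20040 genes 7.88% passed the critical value at either end and 1.97% passed it with replicate 4 highest. These genes share their samples and may share probes, and replicate 4 was already known to be high in them, so the ratios describe the gaps and test nothing further.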

How the results depend on the processing

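No called value changed direction, but the median differences near 0 changed sign: that of nspd was -0.02 without replicate 2, and that of nspe was 0.01 without replicate 1 and 0.06 without replicate 3. Leaving out replicates 1, 2 and 3 in turn gave median differences of 3.67 to 3.81 for nspc, 0 to 2 nspd genes and 0 to 1 nspe genes at least 2-fold higher in replicate 4, replicate 4 highest for 2 to 9 nspd genes and lowest for 2 to 5 members. The value of 9 came without replicate 3 and that of 5 without replicate 2, and nspd-7 was under 2-fold without replicate 1 or replicate 2. Centring on the nearest 100 genes on either side in level gave median differences of 1.30 for nspb, 3.58 for nspc, 0.41 for nspe and 1.32 for all members, with 3 nspd genes and 1 nspe gene at least 2-fold higher, replicate 4 highest for 4 nspe genes and lowest for 0 members. With 500 genes on either side the medians were 1.40 for nspb, 3.57 for nspc and 0.38 for nspe, with 3 nspd genes and 1 nspe gene at least 2-fold higher, replicate 4 highest for 4 nspd and 4 nspe genes and lowest for 1 member. Centring arrays on their medians gave 3.88 for nspc and replicate 4 lowest for 1 member, and the median of replicates 1 to 3 gave 3.73 for nspc and 2 nspd genes at least 2-fold higher. A pseudocount of 32 gave 0.99 for nspb, 2.82 for nspc and 1.06 for all members, with 6 nspb genes at least 2-fold higher, and a pseudocount of 100 gave 0.51, 1.95 and 0.98, with 5 nspb and 0 nspd genes. At 4-fold, 16 members remained, against 2.49% of all genes, with 0 of nspa, 3 of nspb and 0 of nspd. At 1.5-fold, 3 nspd and 2 nspe genes were higher, against 3306 of all 20040 genes. Among the 16 members with a mean above the serpentine receptor level, a mean that includes replicate 4 and so lets members pass through it, 12 were at least 2-fold higher and 12 highest in replicate 4, which was lowest for 0; nspb had 1 of each, nspd 1 highest and nspe 0 highest, and no nspc gene passed. At the 90th percentile of serpentine receptors 28 members lay above the level in all 4 samples, with 4 nspb, 9 nspd and 5 nspe genes, and at the 99th percentile 1 member did, with 1 nspa, 0 nspd and 0 nspe genes. For the filter and these percentiles no share over all genes was computed. The cause of the changes under the alternatives was not tested. Of the differences of single named members under the alternatives, 446 moved by less than the member's SD over replicates 1 to 3 and 52 by more. Without replicate 4 no difference remains, and an alternative that keeps 1 of each set of identical proteins was not run. No paired analysis was possible because the 4 samples form 1 group.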
